A study of Mus musculus with 2 samples.

Results

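The set comprised 9 genes of the cellular oxygen response, out of 32285 genes in the count table: the 3 prolyl hydroxylase genes Egln1, Egln2 and Egln3, the 3 genes for alpha subunits of hypoxia-inducible factor (Hif1a, Epas1 and Hif3a), Vhl, and the response genes Vegfa and Bnip3. They were chosen as a pathway, with the ratio of Egln3 between the muscles already known. The 9 were thus partly selected on the measured Egln3 counts of these libraries. Each was followed by the most abundant myosin heavy chain transcript of the nucleus (at least 3 unique molecular identifiers, UMIs), in non-muscle nuclei and in each library. Ratios between the muscles and between the myosin classes are therefore descriptions of these libraries. The study profiled single nuclei of 2 hindlimb muscles, plantaris and gastrocnemius, from wild-type C57BL/6 mice at 12 weeks of age with the 10x Chromium 3′ assay. The labels name no altered allele and no treatment for either muscle. Each muscle gave 1 library, and neither the number of animals behind a library nor their sex is given in the sources used here. With 1 library per muscle there is no replicate check and no test of any difference: intervals in brackets are 95% intervals for counting error alone, and the muscle and its library cannot be told apart.

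The EGLN enzymes, also called PHD proteins, use molecular oxygen to hydroxylate prolines in HIF alpha subunits. The von Hippel-Lindau protein, encoded by Vhl, recognises the hydroxylated subunits and directs them to the proteasome, so the subunits persist when oxygen is scarce, pair with ARNT and bind hypoxia response elements. Several genes of the system, Egln3 among them, are themselves HIF targets, which closes a feedback loop. Skeletal muscle uses VEGFA, secreted by fibres, to maintain its capillaries, and fibres built on Myh2 (type IIA) are the more oxidative and Myh4 (type IIB) the more glycolytic of the fast fibres in mouse limb muscle, with Myh1 (type IIX) between them.

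The core of the hypoxia response element is ACGTG or GCGTG, and it was searched on both strands in the 250 bases before the annotated start of each gene (RefSeq, build GRCm38.p6). Windows were found for 8 of the 9 genes; Epas1 was not among them. Shown here, 5′ to 3′ on the strand of the gene, are the windows of the gene that differed most between the muscles and of the 2 response genes; capitals mark the matches, which read CACGT or CACGC where they lie on the opposite strand. The windows are chr12:54203875-54204124 for Egln3, chr7:138909507-138909756 for Bnip3 and chr17:46032378-46032627 for Vegfa, on the minus strand in each case.
Egln3: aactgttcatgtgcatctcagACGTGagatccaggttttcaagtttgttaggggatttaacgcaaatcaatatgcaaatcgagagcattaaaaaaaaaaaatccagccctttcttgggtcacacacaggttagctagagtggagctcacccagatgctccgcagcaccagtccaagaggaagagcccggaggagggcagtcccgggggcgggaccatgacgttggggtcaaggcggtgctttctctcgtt
Bnip3: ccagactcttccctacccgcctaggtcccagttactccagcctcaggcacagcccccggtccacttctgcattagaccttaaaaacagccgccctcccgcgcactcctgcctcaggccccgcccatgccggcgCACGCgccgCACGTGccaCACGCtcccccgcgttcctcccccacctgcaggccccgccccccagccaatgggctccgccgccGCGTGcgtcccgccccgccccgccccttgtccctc
Vegfa: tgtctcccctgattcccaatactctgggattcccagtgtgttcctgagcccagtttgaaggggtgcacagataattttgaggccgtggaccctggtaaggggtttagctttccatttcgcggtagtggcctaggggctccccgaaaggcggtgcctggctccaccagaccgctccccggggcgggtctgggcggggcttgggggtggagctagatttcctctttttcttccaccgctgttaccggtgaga
The Egln3 window held 1 match (ACGTG), 229 bases before the start, and the Bnip3 window held 5. In Bnip3 2 of the 5 come from 1 palindrome, CACGTG, which reads ACGTG on both strands, and the other 3 are GCGTG. The Vegfa window shown held none. A second annotated start of Vegfa, with its window at chr17:46025164-46025413, held 2. That window lies within the annotated span of the gene (46016993 to 46032369), so its matches are not upstream of the gene as a whole. Among the rest, Egln2 held 4 matches at one start and 1 at another, Hif1a 3, Egln1 and Hif3a 2 each, and Vhl 0. The Egln2 window with 1 match and the Hif1a window also lie within the annotated spans of their genes. Of 32851 such windows across the genome, 38.6% held at least 1 match, 6.58% at least 3 and 2.58% at least 4. The Bnip3 window was also rich in G and C (72.4%, against 50.8% in Egln3, 59.2% in Vegfa and a median of 52.4% over all windows). A match describes letters in a window, and binding was not measured.

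The analysed nuclei numbered 9149 in plantaris, with a median of 2715 UMIs, and 7372 in gastrocnemius, with a median of 2259.5. Clusters led by fibre genes held 5799 and 5085 myonuclei. All 6 of 6 myonuclear markers were detected in them in both libraries, as they were in every named non-muscle class. The same markers were used to name the clusters, so they give no separate check of the name. The summed level of the markers in myonuclei was 64557 CPM (UMIs of the genes scaled to a class total of 1e+06) in plantaris and 75838 CPM in gastrocnemius. Across the named non-muscle classes it was 10770 to 33736 CPM. Myh2 led in 568 plantaris and 174 gastrocnemius nuclei, Myh1 in 764 and 131, Myh4 in 4180 and 4553, and Myh7 in 6 and 22. A further 281 and 205 myonuclei met no class. Non-muscle nuclei with a marker-based name numbered 2960 and 1814. The 2 libraries shared 17 barcodes. Most Myh4 nuclei lay in clusters drawn mainly from 1 library, so a ratio between the muscles within Myh4 nuclei cannot be told apart from what separates the libraries. CPM are compared for 1 gene across classes, never between genes, because a 3′ UMI count carries no length scale.

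Egln3, which encodes PHD3, the most strongly HIF-induced of the 3 enzymes, varied the most of the 9 genes, both between fibre classes and between libraries. Over all myonuclei it stood at 117 CPM (112 to 122; 2489 UMIs) in plantaris and 6.50 CPM (5.29 to 7.90; 100 UMIs) in gastrocnemius. In Myh2 nuclei the levels were 404 CPM (790 UMIs) in plantaris and 60.2 CPM (30 UMIs) in gastrocnemius. In Myh1 nuclei they were 253 CPM (735 UMIs) in plantaris and 44.0 CPM (17 UMIs) in gastrocnemius. Myh4 nuclei were the lowest class of each library, at 49.95 CPM (790 UMIs) in plantaris and 3.12 CPM (44 UMIs) in gastrocnemius. The log2 ratio of plantaris to gastrocnemius was 2.75 (2.22 to 3.32) for Myh2, 2.52 (1.84 to 3.31) for Myh1 and 4.0 (3.56 to 4.47) for Myh4 nuclei. The ratio was thus above 2 on the log2 scale in each of the 3 fast classes, and the Myh2 nuclei of gastrocnemius sat near the Myh4 nuclei of plantaris. The Myh4 levels were not far from those of the non-muscle nuclei of their own library, 32.7 CPM (28.5 to 37.4; 217 UMIs) in plantaris and 3.55 CPM (1.70 to 6.52; 10 UMIs) in gastrocnemius, and the part of stray RNA in the Myh4 levels and their ratio was not tested. Myh2 and Myh1 nuclei stood well above those levels in both libraries. With the gastrocnemius classes reweighted to the myosin composition of plantaris, the ratio over all myonuclei was 3.03, against 4.17 (3.88 to 4.47) without reweighting.

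Within a library, Egln3 followed the myosin profile in the same order in both muscles. Nuclei with at least 10 Myh UMIs were divided into pure ones, with 80% or more from 1 gene, and mixed ones, with 20% or more from each of 2 genes. Along the series pure Myh2, mixed Myh2 and Myh1, pure Myh1, mixed Myh1 and Myh4, pure Myh4, the level in plantaris was 395, 345, 259.7, 141 and 36.8 CPM. The same series in gastrocnemius read 65.9, 47.4, 35.4, 9.99 and 2.17 CPM, the fourth of these from 1 UMI. Each step was downward in both libraries, although in gastrocnemius the counting intervals of the first 4 classes overlapped. Expressed as log2 ratios, Myh2 over Myh4 nuclei stood at 3.01 (2.87 to 3.16) in plantaris and 4.27 (3.55 to 4.97) in gastrocnemius. Myh1 over Myh4 nuclei stood at 2.34 (2.19 to 2.49) in plantaris and 3.82 (2.92 to 4.66) in gastrocnemius. Between Myh2 and Myh1 the interval lay above 0 in plantaris, at 0.67 (0.53 to 0.82), and held 0 in gastrocnemius, at 0.45 (-0.45 to 1.40).

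**Figure D1:**
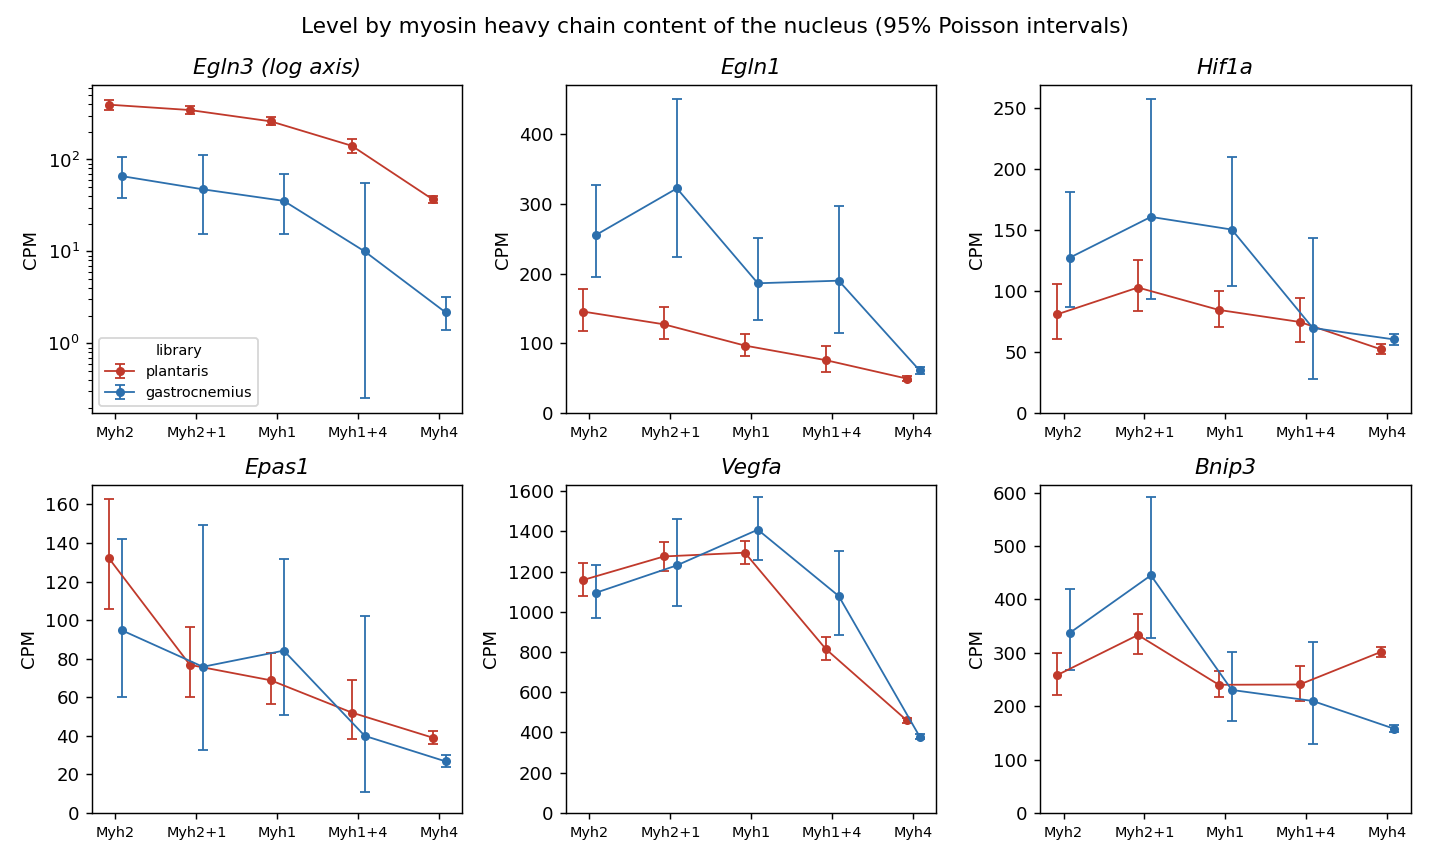
Level in CPM (points) with the 95% Poisson interval (bars) of 6 of the genes along the myosin series from pure Myh2 to pure Myh4 nuclei, in plantaris (red) and gastrocnemius (blue); the Egln3 axis is logarithmic and the others are linear. Egln3 descends in both libraries, from 395 to 36.8 CPM in plantaris and from 65.9 to 2.17 CPM in gastrocnemius along the series, Egln1 stands higher in gastrocnemius than in plantaris in each of the 5 classes, and Bnip3 in plantaris does not descend.

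In plantaris the Egln3 UMIs came from a large share of the Myh2 nuclei. An Egln3 UMI was found in 50.9% of Myh2 nuclei of plantaris (median depth 3194.5 UMIs) and 13.8% of those of gastrocnemius (2539.5 UMIs). The shares were 38.1% and 7.63% among Myh1 nuclei, and 10.1% and 0.747% among Myh4 nuclei. In non-muscle nuclei, a comparison for stray RNA, 4.12% of plantaris nuclei (median 1477 UMIs) and 0.441% of gastrocnemius nuclei (1221.5 UMIs) held 1. After every nucleus was thinned to 1000 UMIs the Myh2 shares were 28.4% and 4.43% and the Myh4 shares 3.92% and 0.294%, with 25, 16, 45 and 127 shallower nuclei left out of these 4 classes. Thinned non-muscle nuclei stood at 1.64% and 0.085%, with 764 and 638 left out. The order of the classes and of the muscles was therefore the same at equal depth. Nuclei with 3 or more Egln3 UMIs numbered 116 among the Myh2 nuclei of plantaris and 0 among those of gastrocnemius, where the highest nucleus held 2. Among Myh4 nuclei there were 85 in plantaris, with up to 16 UMIs in a nucleus, and 2 in gastrocnemius, with up to 5. These nuclei supplied 70.6% of the Egln3 UMIs of Myh2 nuclei and 46.8% of those of Myh4 nuclei in plantaris.

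**Figure D2:**
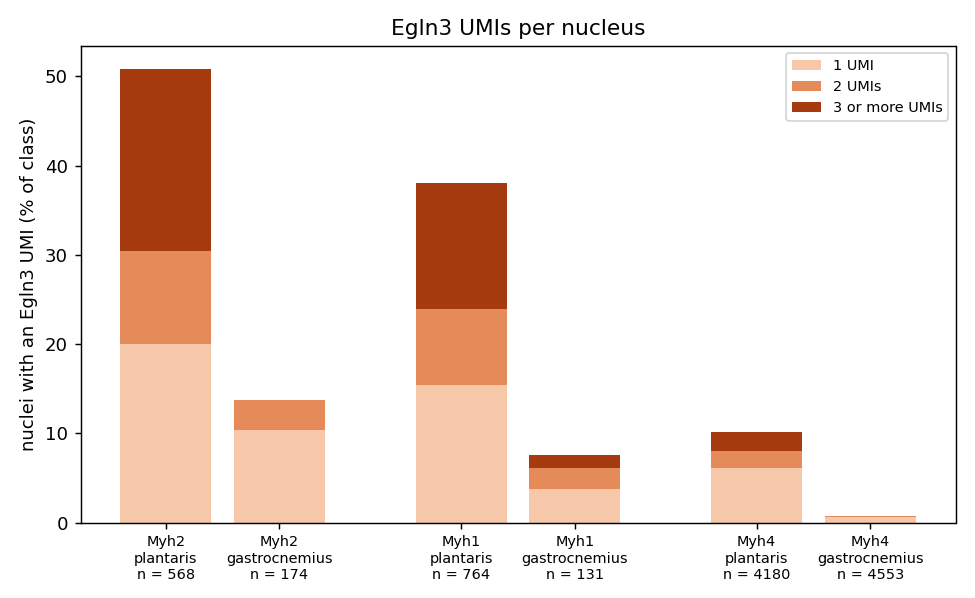
Share of nuclei (percent, from 0) with 1, 2 and 3 or more Egln3 UMIs, as stacked bars, for Myh2, Myh1 and Myh4 nuclei of plantaris and gastrocnemius. The bars reach 50.9% and 13.8% in Myh2 nuclei, 38.1% and 7.63% in Myh1 nuclei and 10.1% and 0.747% in Myh4 nuclei.

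Among the Myh4 nuclei of plantaris the UMIs were unevenly spread. One cluster of 804 nuclei, led by Atf3, Nr4a3, Kctd16 and Myh1, held 465 of the 790 Egln3 UMIs at 145 CPM, while the 2 largest clusters stood at 14.4 and 25.1 CPM. The same cluster in gastrocnemius, with 225 nuclei, held 17 of the 44 UMIs at 22.1 CPM, against 0.36 and 0.57 CPM in the 2 largest clusters there. Atf3 and Nr4a3 are stress and immediate early genes. The cluster also held 345 of the 764 Myh1 nuclei of plantaris and 60 of the 131 of gastrocnemius. Neither the part of the stress genes nor that of Myh1 content in the Egln3 level was tested. Within the cluster shared by both libraries, the Egln3 level was thus again higher in plantaris. Junction and Myh7 nuclei were few, so their Egln3 UMIs were few as well, and a low count there is not a low level. Myh4 nuclei, for comparison, stood at 49.95 CPM in plantaris and 3.12 CPM in gastrocnemius. Nuclei of the neuromuscular junction held 22 UMIs (69.3 CPM) in plantaris and 1 UMI (5.85 CPM) in gastrocnemius, and those of the myotendinous junction held 5 UMIs (7.85 CPM) and 3 UMIs (10.0 CPM). The 6 Myh7 nuclei of plantaris held 8 UMIs, and the 22 of gastrocnemius held 4 UMIs (59.7 CPM). In gastrocnemius the Myh7 over Myh4 log2 ratio was 4.26 (2.32 to 5.72). The gene lies at 54178981 to 54203860 on the minus strand of chromosome 12 in mm10.

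Egln1, which encodes PHD2, the main HIF hydroxylase of most tissues, had the same class order but the opposite order of the muscles. In Myh2 nuclei it stood at 148 CPM (131 to 166; 289 UMIs) in plantaris and 321 CPM (273 to 375; 160 UMIs) in gastrocnemius. In Myh1 nuclei it stood at 89.9 CPM (261 UMIs) in plantaris and 230.4 CPM (89 UMIs) in gastrocnemius. Myh4 nuclei were lowest again, at 52.2 CPM (826 UMIs) and 63.6 CPM (898 UMIs). The log2 ratio of plantaris to gastrocnemius was -1.12 (-1.40 to -0.83) for Myh2, -1.36 (-1.71 to -0.99) for Myh1 and -0.28 (-0.42 to -0.15) for Myh4 nuclei. With the stricter rule of 10 Myh UMIs and 80% from 1 gene the first 2 became -0.81 and -0.94, so they kept their sign and lay under a 2-fold difference. The step from Myh4 to Myh2 nuclei was also larger in gastrocnemius, where Myh2 over Myh4 stood at 2.33 (2.08 to 2.58), than in plantaris, at 1.5 (1.30 to 1.69); this difference was not tested over samples. In the Atf3 and Nr4a3 cluster, Myh4 nuclei held 55.1 CPM of Egln1 in plantaris and 137 CPM in gastrocnemius. The cluster with most of the Egln3 UMIs of the Myh4 class in plantaris thus had an Egln1 level close to that of the class as a whole, whereas in gastrocnemius it stood above it.

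Egln2, which encodes PHD1, was sparse and showed no such pattern. Over all myonuclei it stood at 9.81 CPM (209 UMIs) in plantaris and 10.1 CPM (156 UMIs) in gastrocnemius, a log2 ratio of -0.05 (-0.35 to 0.26). Its Myh2 nuclei held 15 and 9 UMIs, and its Myh1 nuclei held 20 UMIs in plantaris and 0 in gastrocnemius, where 3 UMIs would be 7.77 CPM. The Myh2 ratio of -1.24 had an interval that held 0 (-2.52 to 0.14).

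Of the alpha subunits, Hif1a, the broadly expressed one, varied little between muscles over all myonuclei but was lower in plantaris within each fast class. It stood at 62.4 CPM (1329 UMIs) in plantaris myonuclei and 65.2 CPM (1004 UMIs) in gastrocnemius myonuclei, a log2 ratio of -0.06 (-0.18 to 0.06). In Myh2 nuclei the levels were 92.5 CPM (181 UMIs) and 128 CPM (64 UMIs), in Myh1 nuclei 81.6 CPM (237 UMIs) and 137 CPM (53 UMIs), and in Myh4 nuclei 53.7 CPM (850 UMIs) and 60.5 CPM (854 UMIs). The log2 ratio of the muscles was -0.47 (-0.89 to -0.04) for Myh2, -0.75 (-1.18 to -0.29) for Myh1 and -0.17 (-0.31 to -0.03) for Myh4 nuclei. Set against Myh4, Myh2 nuclei held more Hif1a in both libraries, with log2 ratios of 0.78 (0.54 to 1.02) in plantaris and 1.09 (0.70 to 1.45) in gastrocnemius. Its RNA is one readout of a factor whose protein is set by degradation, which these counts do not measure.

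Epas1, which encodes HIF-2alpha and is known for its role in endothelium, had its highest level outside the fibres. Endothelial nuclei held 496 CPM (391 to 621; 76 UMIs) in plantaris and 871 CPM (655 to 1137; 54 UMIs) in gastrocnemius, a log2 ratio of -0.81 (-1.34 to -0.28). Leaving aside the few adipocytes, the cluster of pericytes and smooth muscle came next, at 263 CPM (231 UMIs) and 241 CPM (97 UMIs). Its intervals did not reach the endothelial ones in either library. A UMI was found in 42 of 84 endothelial nuclei of plantaris and 21 of 45 of gastrocnemius, at median depths of 1012.5 and 1109 UMIs. Mesenchymal progenitors, macrophages and muscle stem cells lay between 23.9 and 43.1 CPM. Tenocytes held 35 UMIs (66.3 CPM) in plantaris and 1 UMI (11.2 CPM) in gastrocnemius, a log2 ratio of 2.56 whose interval held 0 (-0.01 to 7.90). The endothelial cluster was small, with 84 and 45 nuclei, and it also carried the lymphatic markers Mmrn1, Prox1 and Flt4.

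In myonuclei Epas1 tracked the myosin class. Myh2 nuclei held 99.6 CPM (195 UMIs) in plantaris and 102 CPM (51 UMIs) in gastrocnemius. Myh1 nuclei held 71.3 CPM (207 UMIs) and 101 CPM (39 UMIs). Myh4 nuclei held 41.0 CPM (648 UMIs) and 29.8 CPM (421 UMIs). The Myh2 over Myh4 log2 ratio was 1.28 (1.04 to 1.52) in plantaris and 1.78 (1.33 to 2.20) in gastrocnemius. Between the muscles, the ratio was 0.46 (0.28 to 0.64) in Myh4 nuclei and -0.04 in Myh2 nuclei. Markers of vascular endothelium summed to 36.6 CPM in plantaris myonuclei and 33.5 CPM in gastrocnemius myonuclei, against 6200 and 9262 CPM in the endothelial cluster; the part of such RNA in the myonuclear Epas1 level was not tested.

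Hif3a, whose products include short forms that restrain the other alpha subunits, was lower in fibres than in non-muscle nuclei of both libraries, and its order of the muscles was opposite to that of Egln3. In Myh4 nuclei it stood at 2.97 CPM (47 UMIs) in plantaris and 11.6 CPM (164 UMIs) in gastrocnemius, a log2 ratio of -1.97 (-2.47 to -1.49). A UMI was found in 0.933% of Myh4 nuclei in plantaris and in 3.03% in gastrocnemius. Myh2 nuclei held 0 and 2 UMIs and Myh1 nuclei 6 and 1. In mesenchymal progenitors the level was 22.8 CPM (81 UMIs) in plantaris and 46.5 CPM (83 UMIs) in gastrocnemius, a log2 ratio of -1.03 (-1.49 to -0.57). Pericytes and smooth muscle gave -2.80 (-4.60 to -1.29), from 5 UMIs in plantaris and 16 in gastrocnemius. Over all named non-muscle nuclei it was at 18.1 CPM (120 UMIs) and 41.8 CPM (118 UMIs). The lower level in plantaris thus appeared in fibres and in non-muscle nuclei alike.

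**Figure D3:**
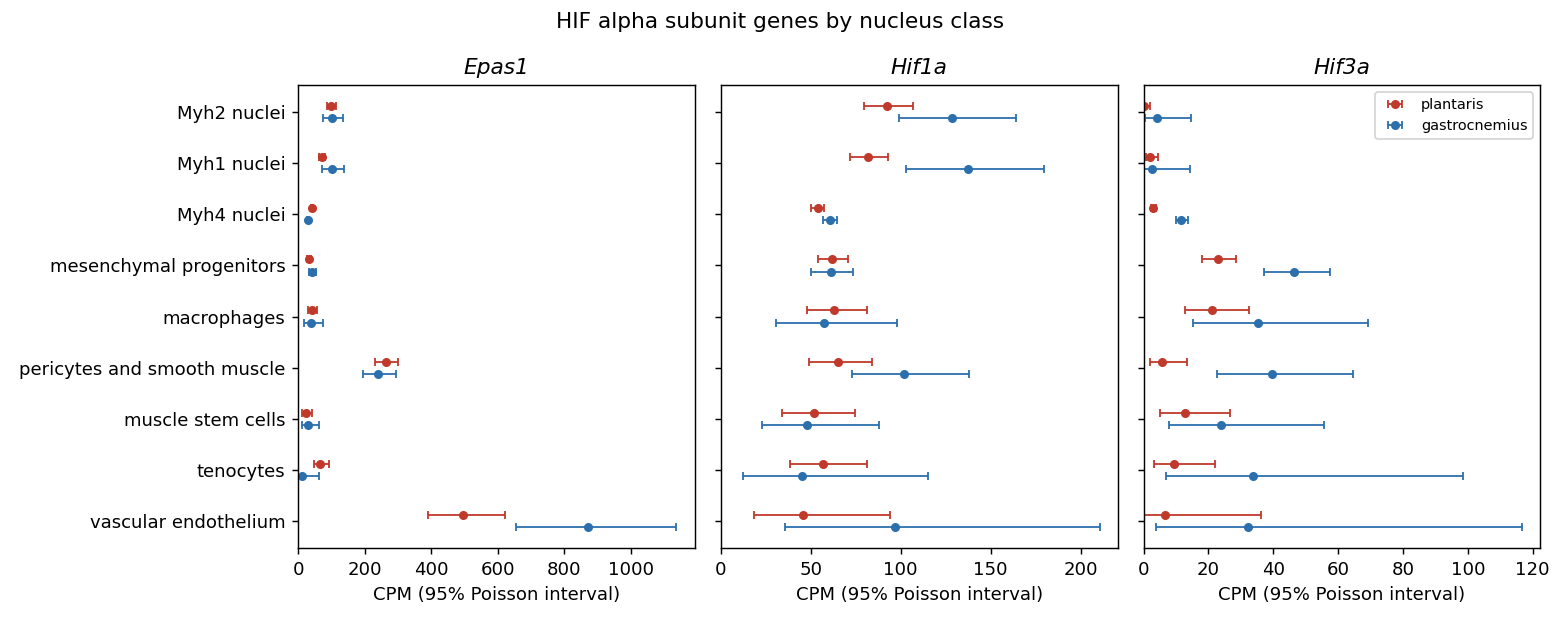
Level in CPM with the 95% Poisson interval of Epas1, Hif1a and Hif3a in Myh2, Myh1 and Myh4 nuclei and in 6 non-muscle classes, in plantaris (red) and gastrocnemius (blue). Epas1 stands highest in vascular endothelium (496 and 871 CPM), Hif1a is highest in Myh1 nuclei of gastrocnemius (137 CPM), and Hif3a lies lower in plantaris than in gastrocnemius in Myh4 nuclei (2.97 and 11.6 CPM) and in mesenchymal progenitors (22.8 and 46.5 CPM).

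Vhl was the thinnest of the 9 genes. All myonuclei together held 48 UMIs (2.25 CPM) in plantaris and 42 UMIs (2.73 CPM) in gastrocnemius, a log2 ratio of -0.28 (-0.90 to 0.36), and Myh4 nuclei held 39 UMIs in each library. Non-muscle nuclei held 31 UMIs (4.67 CPM) and 22 UMIs (7.80 CPM). No pattern by myosin class could be read at this depth.

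Vegfa, the angiogenic factor of the set, was abundant enough to be measured closely. In Myh2 nuclei it stood at 1188 CPM (2325 UMIs) in plantaris and 1059 CPM (528 UMIs) in gastrocnemius. In Myh1 nuclei it stood at 1233 CPM (3578 UMIs) in plantaris and 1375 CPM (531 UMIs) in gastrocnemius. In Myh4 nuclei it stood at 484 CPM (7650 UMIs) in plantaris and 400.4 CPM (5652 UMIs) in gastrocnemius. Myh2 and Myh1 nuclei therefore held more than 2-fold the level of Myh4 nuclei in both muscles. The Myh2 over Myh4 log2 ratio was 1.30 (1.23 to 1.36) in plantaris and 1.40 (1.27 to 1.53) in gastrocnemius. The Myh1 over Myh4 ratio was 1.35 (1.29 to 1.41) in plantaris and 1.78 (1.65 to 1.91) in gastrocnemius. Unlike Egln3, Vegfa was highest not in pure Myh2 nuclei but in pure Myh1 nuclei, with 1158 CPM in pure Myh2 and 1294 CPM in pure Myh1 nuclei of plantaris, and 1095 and 1409 CPM in those of gastrocnemius. With all nuclei of the 2 classes, the Myh2 over Myh1 log2 ratio was -0.05 in plantaris, with an interval that held 0 (-0.13 to 0.02). In gastrocnemius it was -0.38 (-0.55 to -0.20). The ratio of the muscles was 0.55 (0.51 to 0.59) over all myonuclei, and 0.14 with the gastrocnemius classes reweighted to the myosin composition of plantaris. Within classes it was 0.17 (0.03 to 0.30) for Myh2, -0.16 (-0.29 to -0.02) for Myh1 and 0.27 (0.22 to 0.32) for Myh4 nuclei, the last of which lay close to the median of 0.20 over all genes in that contrast. More than 60% of nuclei of every fast class held a Vegfa UMI, with the lowest share, 62.1%, in the Myh4 nuclei of gastrocnemius.

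Bnip3, a mitochondrial receptor for mitophagy and a classical HIF target, ordered the classes differently in the 2 libraries. In Myh2 nuclei it stood at 278.5 CPM (545 UMIs) in plantaris and 373 CPM (186 UMIs) in gastrocnemius. In Myh1 nuclei it stood at 239 CPM (695 UMIs) in plantaris and 264 CPM (102 UMIs) in gastrocnemius. In Myh4 nuclei it stood at 299 CPM (4730 UMIs) in plantaris and 159.7 CPM (2254 UMIs) in gastrocnemius. Myh2 over Myh4 was -0.10 (-0.23 to 0.03) in plantaris and 1.22 (1.0 to 1.44) in gastrocnemius, and Myh1 over Myh4 was -0.32 (-0.44 to -0.21) and 0.73 (0.42 to 1.01). Between the muscles the log2 ratio was 0.91 (0.83 to 0.98) in Myh4 nuclei and -0.42 (-0.67 to -0.17) in Myh2 nuclei; in Myh1 nuclei it was -0.14 (-0.44 to 0.17), and 0.38 after thinning. The higher Myh4 level in plantaris was spread across its clusters, at 304, 277 and 329 CPM in the 3 largest, including the Atf3 and Nr4a3 cluster, where Egln3 was high. In gastrocnemius the 2 largest clusters and that one stood at 169, 157 and 182 CPM. The few adipocytes had the highest Bnip3 level among non-muscle classes, with 14 UMIs (428 CPM) in 13 nuclei of plantaris and 29 UMIs (667 CPM) in 28 nuclei of gastrocnemius.

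Counted against a 2-fold difference with at least 20 UMIs over both groups, few members differed between the muscles. Over all myonuclei 1 of 9 members was higher in plantaris (Egln3), where 9.12% of 13165 genes were, and 1 was lower (Hif3a), where 2.39% were. In Myh4 nuclei the same 2 genes were the ones counted, beside 8.9% of genes higher and 2.15% lower. In Myh1 nuclei Egln3 was higher and Egln1 lower among 7 members that reached the UMI minimum, beside 12.9% and 4.21% of genes. In Myh2 nuclei Egln3 was higher and Egln1 and Egln2 (-2.52 to 0.14) lower among 7, beside 8.76% and 4.89%. In non-muscle nuclei Egln3 was higher, at a level not distinguished from stray fibre RNA, and Hif3a lower, beside 6.12% and 2.49%. Nothing is read from these shares, since the choice of the set used the ratio between the muscles. Between classes, Myh2 over Myh4 nuclei counted Egln1, Egln3, Epas1 and Vegfa higher in plantaris, where 8.59% of genes were, and Vhl lower (2 UMIs, -4.37 to 0.68 on the log2 scale), where 13% were. In gastrocnemius Egln1, Egln3, Hif1a, Epas1, Vegfa and Bnip3 were higher, where 16.6% of genes were. Hif3a was lower there (2 UMIs in Myh2 nuclei, -4.59 to 0.34), where 10.4% of genes were. Myh1 over Myh4 nuclei counted Egln3 and Vegfa higher in plantaris, beside 5.66% of genes, and none lower, beside 8.93%. In gastrocnemius it counted Egln1, Egln3, Hif1a, Epas1 and Vegfa higher, beside 11.9% of genes, and Hif3a lower (1 UMI, -7.48 to 0.33), beside 9.62%. The 2 sets of counts share the Myh4 nuclei of a library. Egln3 and Vegfa were counted in each of these 4 contrasts.

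**Figure D4:**
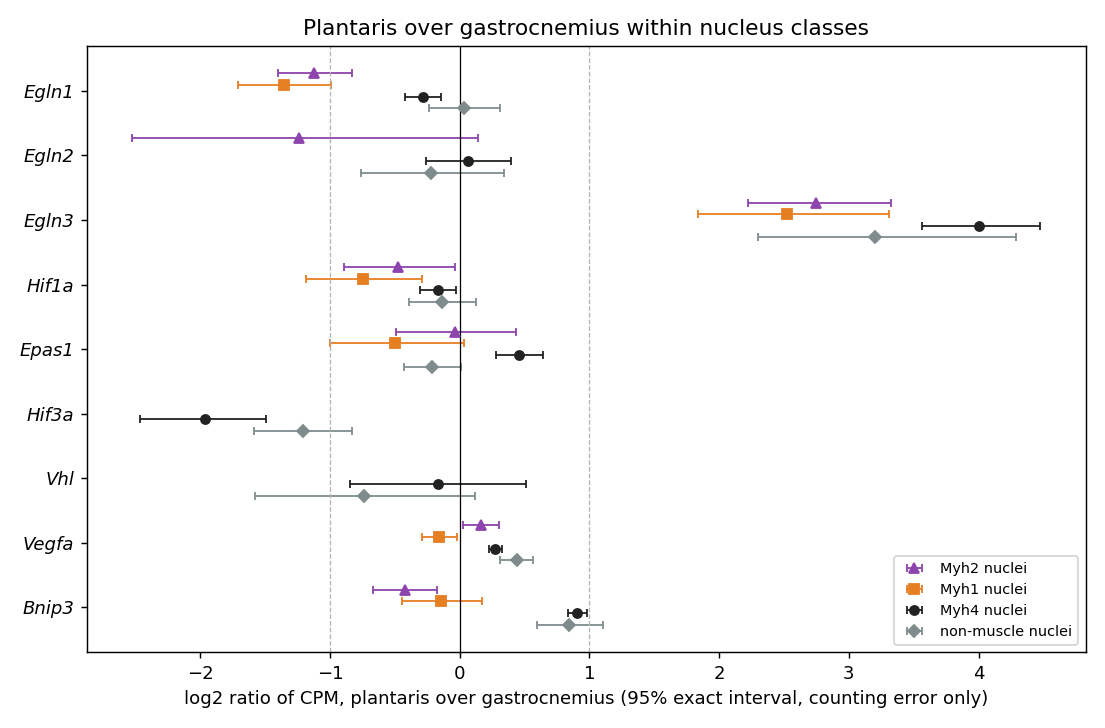
Log2 ratio of plantaris to gastrocnemius with the 95% exact interval for the 9 genes in Myh2, Myh1, Myh4 and named non-muscle nuclei; dashed lines mark a 2-fold difference, and ratios from under 20 UMIs or with a count of 0 are not drawn. Egln3 lies above 2 in all 4 kinds of nuclei, in non-muscle nuclei at a level not distinguished from stray fibre RNA. Hif3a lies below -1 where drawn and Egln1 below -1 in Myh2 and Myh1 nuclei, and most other points lie between the dashed lines.

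Fibre RNA reached the non-muscle nuclei, which held 3.38 Myh UMIs per nucleus in plantaris and 2.40 in gastrocnemius, against 14.5 and 14.2 in myonuclei. If each gene came along at its myonuclear ratio to Myh, the non-muscle nuclei would hold 297 Egln3 UMIs in plantaris and 6.0 in gastrocnemius; they held 217 and 10. Bnip3 was likewise near it, with 680 UMIs counted against 732 at that ratio in plantaris and 161 against 158 in gastrocnemius. Vegfa lay moderately above it, with 2123 against 1686 and 665 against 418. The non-muscle level of Egln3, 32.7 CPM in plantaris and 3.55 CPM in gastrocnemius, was thus not distinguished from stray fibre RNA, and no expression is read from it. The same holds for Bnip3 over non-muscle nuclei as a whole, apart from the adipocytes described above; where the UMIs came from was not tested. Hif3a, at 120 UMIs against 6.4 in plantaris and 118 against 10.3 in gastrocnemius, Epas1, at 518 against 131 and 255 against 31.6, and Vhl, at 31 against 5.7 and 22 against 2.5, exceeded it several fold or more. Hif1a (403 against 159, and 188 against 60.3), Egln1 (380 against 170, and 158 against 71.9) and Egln2 (87 against 24.9, and 43 against 9.4) lay above it by smaller factors. Over all nuclei of a kind, the myonuclear over non-muscle log2 ratio was 1.84 for Egln3 in plantaris and 0.87 (-0.06 to 1.98) in gastrocnemius, while Hif3a stood at -2.83 (-3.33 to -2.36) and -1.90 (-2.25 to -1.55). In plantaris Egln3, Vegfa and Bnip3 were at least 2-fold higher in myonuclei, where 10.5% of genes were, and Vhl and Hif3a lower, where 34.9% were. In gastrocnemius Bnip3 was higher, beside 10.6% of genes, and Epas1, Vhl and Hif3a were lower, beside 34.8%.

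**Figure D5:**
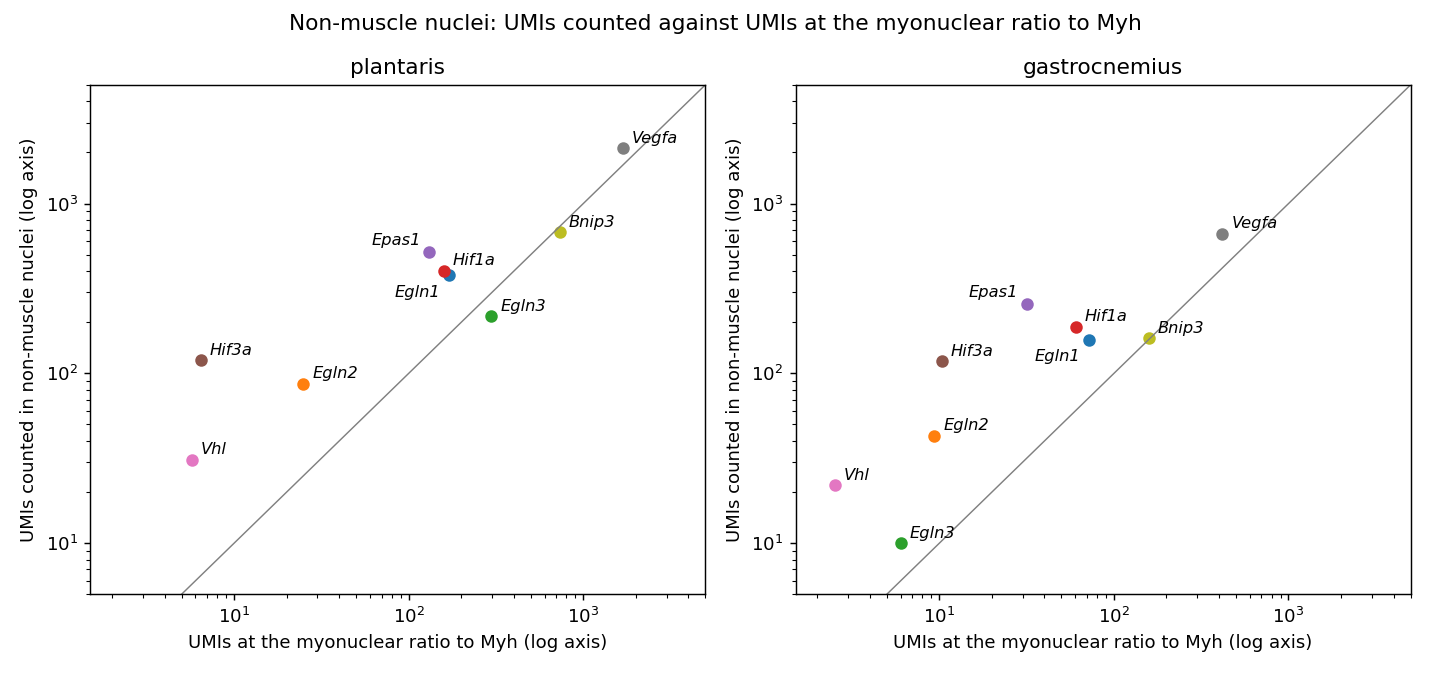
UMIs of each gene counted in named non-muscle nuclei against the UMIs that the myonuclear ratio to Myh would give, on logarithmic axes, for plantaris (left) and gastrocnemius (right); the grey line marks equal numbers. Egln3 and Bnip3 lie near the line, at 217 against 297 and 680 against 732 UMIs in plantaris, while Hif3a and Epas1 lie far above it.

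The wider pathway was described with 4 gene lists drawn up for this tissue. Over all myonuclei of plantaris against gastrocnemius, the remaining HIF machinery (13 of 14 genes measured) had 1 gene at least 2-fold higher, Siah2, a ubiquitin ligase that acts on PHD proteins, at 22.0 and 9.55 CPM, and none lower. Arnt, the partner of the alpha subunits, stood at 179 CPM (3807 UMIs) and 179.9 CPM (2768 UMIs). Of 19 measured HIF targets 2 were higher and 2 lower, and over all genes in this contrast 9.12% were higher and 2.39% lower. P4ha1, a collagen prolyl hydroxylase subunit, was at 159 CPM (3382 UMIs) and 64.0 CPM (985 UMIs), and Ddit4, an inhibitor of mTORC1 signalling, at 11.6 CPM (248 UMIs) and 2.66 CPM (41 UMIs). Pgk1, a glycolytic enzyme, was lower in plantaris at 34.7 CPM (738 UMIs) against 81.9 CPM (1261 UMIs), as was Car9, at 13 and 19 UMIs with an interval that held 0 (-2.16 to 0.08). Of the VEGF family and its receptors 2 of 9 measured genes were higher, Nrp1 and Angpt1, and none lower; Nrp1 was at 202 CPM (4296 UMIs) and 46.1 CPM (710 UMIs). Within Myh4 nuclei the Nrp1 log2 ratio was 1.25 (1.07 to 1.43), against 2.13 over all myonuclei, Angpt1 was at 0.86 and not counted, and Angpt2 was lower at -1.12 (-2.09 to -0.20; 16 and 31 UMIs). None of the 9 mitophagy genes differed by 2-fold; Bnip3l, the closest relative of Bnip3, was at 38.3 CPM in both. The median log2 ratios of the lists were 0.03 for the machinery, 0.04 for the targets, 0.27 for the VEGF family and its receptors and 0.35 for mitophagy, against 0.18 over all genes. HIF targets as a list thus did not share the ratio of Egln3.

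Between fibre classes the lists separated further. Of the VEGF family and its receptors, 4 of 7 measured genes were at least 2-fold higher in Myh2 than in Myh4 nuclei of plantaris and 1 lower, with a median log2 ratio of 1.01 against -0.11 over all genes; in gastrocnemius 3 of 6 were higher and 1 lower, with a median of 0.95 against 0.07. Nrp1, a co-receptor of VEGF, stood at 785 CPM in Myh2 and 59.2 CPM in Myh4 nuclei of plantaris, and at 381 and 24.9 CPM in those of gastrocnemius. Angpt1, a ligand that stabilises vessels, stood at 534 and 109 CPM in plantaris and 451 and 59.8 CPM in gastrocnemius. Vegfb stood at 38.3 and 9.23 CPM in plantaris and 32.1 and 6.87 CPM in gastrocnemius. HIF targets went in both directions: of 18 measured in plantaris 1 was higher in Myh2 nuclei and 7 lower, and in gastrocnemius 5 were higher and 6 lower. Over all genes the shares in these contrasts were 8.59% higher and 13% lower in plantaris, and 16.6% higher and 10.4% lower in gastrocnemius. The lower ones in plantaris were Pfkfb3, Pfkfb4, Ldha, Slc16a3, Ddit4, P4ha1 and Slc2a1. Slc2a1, a glucose transporter, rested on 1 UMI in Myh2 and 32 in Myh4 nuclei there, with an interval that held 0 (-7.33 to 0.60), and was counted higher in gastrocnemius from 2 and 25 UMIs, with an interval that also held 0 (-1.94 to 3.18). Hk2, a hexokinase, was higher in Myh2 nuclei by less than 2-fold, at 743 and 467 CPM in plantaris and 624 and 398 CPM in gastrocnemius. Pfkfb3, a regulator of glycolysis, stood at 81.2 CPM in Myh2 and 772 CPM in Myh4 nuclei of plantaris and at 78.3 and 719 CPM in those of gastrocnemius. Slc16a3, a lactate exporter, stood at 9.71 and 68.2 CPM in plantaris and 8.03 CPM (4 UMIs) and 68.7 CPM in gastrocnemius. The median of the target list was -0.03 in plantaris and 0.22 in gastrocnemius.

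The genes whose levels most resembled Egln3 were sought over 16 profiles, 8 nuclear classes in each library, by Pearson's r of log2(CPM + 1) across 9711 genes. The closest were Hspa4 (r = 0.94), Samm50 (0.92), Tmem63b (0.91), Miga2 (0.91) and Bag3 (0.91). Hspa4, a heat shock protein of the HSP110 family, stood at 191 CPM in plantaris and 136 in gastrocnemius in Myh2 nuclei, and at 136 and 80.6 CPM in Myh4 nuclei. Bag3, a co-chaperone of chaperone-assisted autophagy, stood at 333 and 329 CPM in Myh2 nuclei and 170.5 and 61.1 CPM in Myh4 nuclei. Among the members r was 0.75 for Bnip3, 0.73 for Vegfa, 0.53 for Epas1, 0.50 for Hif1a, 0.38 for Egln1, 0.20 for Egln2 and -0.83 for Hif3a. The 16 profiles share 2 libraries, their depth and the fibre RNA in non-muscle classes, so these values describe the profiles and carry no test.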

How the data were processed

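The authors deposited 1 table of raw UMI counts per gene and nucleus for both muscles, made with Cell Ranger 6.0.1 on mouse build mm10 per the submitters' processing notes, and a second deposited table that names the library of each barcode. Whether introns or strand were used in counting is not given in the sources used here, so UMIs of Bnip3 and Hif1a cannot be told apart from those of their antisense partners Gm45507 and Gm15283. Per the labels' protocols, nuclei were freed by mincing and bead homogenisation of the muscle and sorted on a DNA stain.

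Nuclei with under 200 genes or 5% or more mitochondrial UMIs were left out (6 of 9156 plantaris nuclei). Scrublet marked 1 doublet in plantaris (0.0109%) and 2 in gastrocnemius (0.0271%), below the 0.5% at which the caller is taken to have worked, so doublets were also treated by leaving out the 5% of highest scores. Clusters (scanpy 1.11.5, leidenalg 0.10.2, 2000 variable genes, 30 principal components, 15 neighbours, resolution 1) were named where at least 3 markers of a list were met. A marker was met with 10 or more UMIs and, if myonuclear, at least 60% of the level of the highest cluster. Other markers needed 20% of that level and 4 times the median cluster. Clusters that met junction markers counted as myonuclei. A cluster of 13 plantaris and 8 gastrocnemius nuclei met mesenchymal markers but stayed unnamed, because its leading genes included markers of other types. The name pericytes and smooth muscle and the exclusion of a cluster that carried both myonuclear and mesenchymal markers (377 plantaris and 465 gastrocnemius nuclei) were chosen after the clusters were seen.

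UMIs were summed per class and library and divided by the UMI total of the class (21296583 and 15390013 in plantaris and gastrocnemius myonuclei). Intervals are exact Poisson for levels, exact conditional binomial for ratios and Clopper-Pearson for shares. A count of 0 was set to 3 in ratios. UMIs are few per nucleus and intervals cover counting error only. The contrasts were made over whole tables, and the scripts were checked on simulated data with known folds. The members, the gene lists, the rule for named list genes (at least 2-fold in a contrast, the largest given) and the measure of likeness were chosen with earlier results of these data known. Scaling, weighting, thinning, doublet, junction, class-rule and composition alternatives were tried. Python 3.11.15, numpy 2.4.6, scipy 1.17.1 and pandas 2.3.3 were used.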

Additional observations from a re-analysis of the deposited data

Results flagged for a closer look

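Members whose ratio had opposite signs in 2 groups under the same contrast are listed here; with 1 library per muscle none of these differences was tested. Vegfa stood at a log2 ratio of plantaris to gastrocnemius of 0.17 in Myh2 nuclei, -0.16 in Myh1 nuclei and 0.27 in Myh4 nuclei. Its Myh4 ratio was 0.09 under median-ratio scaling, and its Myh1 ratio stayed between -0.21 and -0.10 over the settings tried.

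Bnip3 stood at a log2 ratio of plantaris to gastrocnemius of -0.42 in Myh2 nuclei and 0.91 in Myh4 nuclei. The Myh1 over Myh4 ratio of the same gene was -0.32 in plantaris and 0.73 in gastrocnemius, and the gastrocnemius value was 0.17 in nuclei thinned to 1000 UMIs. The Bnip3 level in Myh4 nuclei, 299 CPM in plantaris and 159.7 CPM in gastrocnemius, enters each of these ratios.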

How the results depend on the processing

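No paired analysis was possible because each muscle gave 1 library and the result comes from no test. Of 472 recomputed member ratios, 431 stayed within the counting interval of the value given. The sign changed in 19, of which 18 were settings of 8 ratios under 2-fold, such as Epas1 in Myh2 nuclei (0.48 with the stricter myosin rule), Bnip3 in Myh1 nuclei, Egln2 and Vhl. Among ratios past 2-fold the sign changed once, for Hif3a in Myh2 over Myh4 nuclei of gastrocnemius, at 0.0007 after thinning, from 2 and 56 UMIs. Of 64 recomputed counts of members past 2-fold, 60 stayed within 1.5 times the count given. The count for the muscle contrast was 1 (Egln3) in Myh1 nuclei with 10 Myh UMIs and 80% from 1 gene, and 1 (Egln3) in Myh2 nuclei under that rule and after thinning. The count for Myh1 over Myh4 nuclei of gastrocnemius was 3 (Egln1, Epas1 and Vegfa) after thinning, which left Egln3 under the minimum of 20 UMIs; the cause of the other moves was not tested. The Egln3 ratio of the muscles ran between 3.03 and 4.6 over all myonuclei and 3.82 and 4.14 in Myh4 nuclei, with the highest value in Myh1 nuclei (3.55) resting on 211 and 3 UMIs. Median-ratio scaling, which takes out the shared shift of genes between the libraries, set Egln1 at -0.37 over all myonuclei, and Vegfa at 0.09 and Bnip3 at 0.72 in Myh4 nuclei. Reweighting to the myosin composition of plantaris set Epas1 at 0.15, Bnip3 at 0.57, Egln1 at -0.73 and Hif1a at -0.32. Depth limits Vhl, Egln2 and Hif3a in Myh2 and Myh1 nuclei most.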
